A study of Sorghum bicolor with 12 samples.

Results

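The 200 mRNAs described here carried the fewest ribosome footprints for their mRNA level in control shoots of the inbred sorghum line BTx623 (Sorghum bicolor). Members were chosen among transcripts with a coding length of 300 to 5999 bases, a mean control count of at least 50 in RNA and in footprints, and an RNA level outside the 150 most abundant. Of 34026 transcripts listed for both assays, 11508 met these conditions, and the 200 with the lowest efficiency were taken, so the members were chosen by their control RNA and footprint counts. Efficiency is the log2 of footprint CPM minus the log2 of RNA CPM, each with 0.1 added, averaged over the control shoots. CPM is a transcript's count scaled to the same total in every library. An efficiency of 0 is thus an equal share of both libraries, and -2 is a footprint share 4-fold lower than the mRNA share.

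RNA-seq counts mRNA fragments, and Ribo-seq counts the short fragments that ribosomes shield from nuclease. Sulfur-deficient shoots received 10 µM sulfate per the titles and the growth protocol, whereas the design text of the series says 0 µM, and control shoots received 500 µM. All seedlings germinated for 5 days and were then treated for 8 days, and whole shoots of 3 plants per treatment were harvested 13 days after sowing. Per the labels' protocols, the powder of a shoot supplied both of its libraries, so that 12 libraries came from 6 shoots of the same line, and footprints of 26 to 34 nt were cut from a gel.

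An mRNA is translated when a small ribosomal subunit binds near its 5′ end, scans to a start codon and is joined by the large subunit. Upstream open reading frames, stable structures in the leader, retention in the nucleus and storage in RNA granules are known ways in which plant mRNAs come to hold few ribosomes on their coding sequence. In plants, mRNAs of transcription factors and of enzymes under metabolite feedback are textbook cases of such upstream reading frames. None of these was measured here.

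The files give transcript IDs and coding lengths without gene names, products or sequences. None of the IDs matched the gene table used here (0 matches), so no member has a stated function, no list of genes by function was described, and the tissue could not be checked by marker genes. Chromosome numbers are those written in the IDs. A whole shoot mixes many cell types, so fewer cells of a type and less RNA per cell cannot be told apart. The region over which RNA reads were counted is not given in the sources used here, and a member whose RNA count covers more than the coding sequence would have a lower ratio.

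Totals ran between 6328659 and 11066815 in footprint libraries and between 13995665 and 18475153 in RNA libraries. The shoots are described as biological replicates, and p-values between treatments measure the spread between them. With the shoot as a block, p-values measure the spread of the ratio of footprints to RNA over shoots. All fits also draw on the spread of other transcripts, so small p-values do not rest on 3 shoots alone. Libraries of a treatment differed by more than counting error, and some RNA libraries stood apart. Deficient shoot 1 differed from deficient shoots 2 and 3 by a chi-square per degree of freedom of 9.96 and 9.93, against 2.7 between these 2. Control shoot 3 differed from control shoots 2 and 1 by 8.81 and 5.97, against 2.81 between control shoots 1 and 2. In footprints all pairs differed, by 10.3 to 18.8 in deficient shoots, with shoots 2 and 3 the farthest apart, and by 5.44 to 11.9 in control shoots, with shoot 3 at 11.9 from both others. Results between treatments were recomputed without deficient shoot 1 and control shoot 3, which were picked from RNA alone. They are given where the number of members called changes.

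Control efficiency of the members ran from -5.22 to -2.33, a 7.41-fold span, with a median of -2.69. On average the share of footprints was thus 6.45-fold lower than the share of mRNA at the median member, 37.3-fold lower at the lowest and 5.03-fold lower at the highest. These values chose the members and are given as a description. Of the 200 members, 15 lay below -4, 42 between -4 and -3, 87 between -3 and -2.5, and 56 above -2.5. The median of the other 11308 transcripts was -0.13.

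The lowest member was Sobic.003G278500.1, with a coding length of 909 bases on chromosome 3. Its footprints stood at 4.58, 2.57 and 5.43 CPM in deficient shoots 1 to 3, against 4.20, 5.78 and 6.23 CPM in control shoots 1 to 3. These levels rest on 23 to 64 footprints per library. Its RNA stood at 191, 206 and 205 CPM in deficient shoots and at 193, 221 and 194 CPM in control shoots. The mRNA level was nearly the same in all 6 shoots, and the footprint levels overlapped between treatments.

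Sobic.004G211900.1 followed, with a coding length of 1197 bases on chromosome 4. Its footprints were 8.53, 15.8 and 8.96 CPM in deficient shoots and 7.37, 7.23 and 7.73 CPM in control shoots. The groups did not overlap, and deficient shoot 2 alone stood well above the others. Its RNA was 347, 318 and 349 CPM in deficient shoots and 277, 243 and 317 CPM in control shoots. Sobic.009G030100.1, with only 444 coding bases on chromosome 9, had footprints of 4.42, 9.82 and 7.19 CPM in deficient shoots and 5.56, 6.33 and 7.96 CPM in control shoots, with RNA of 197 to 225 CPM in deficient shoots and 208 to 252 CPM in control shoots.

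Footprints per 100 codons are counts not scaled to library totals, so they do not compare treatments. Sobic.007G047400.1, on chromosome 7 with 2244 coding bases, had 6.28, 6.28 and 10 footprints per 100 codons in deficient shoots and 9.36, 10 and 9.89 in control shoots. Its scaled footprints were level between treatments (log2 fold change 0.015, SE 0.228, edgeR adjusted p = 0.993). Sobic.001G418700.1, on chromosome 1 with 1614 coding bases, had 3.53, 14.9 and 11.5 footprints per 100 codons in deficient shoots and 7.81, 11.7 and 13 in control shoots. Deficient shoot 1 was the lowest library of Sobic.001G418700.1, at 19 footprints in all, and also had the smallest footprint total. The scaled footprints of Sobic.001G418700.1 had a log2 fold change of 0.22 between treatments (SE 0.354, edgeR adjusted p = 0.912). The other 5 of the 10 lowest members were Sobic.009G143700.1, Sobic.002G056500.2, Sobic.009G016600.1, Sobic.010G063200.1 and Sobic.008G156400.1, with control efficiencies from -4.81 to -4.29 and deficient efficiencies from -5.20 to -3.75.

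Sobic.009G143700.1 was also the member with the highest control RNA count, at 720, 628 and 631 CPM in deficient shoots against 579, 591 and 638 CPM in control shoots. Its footprints were 20.1, 13.5 and 21 CPM in deficient shoots and 22.3, 20.9 and 21 CPM in control shoots. It therefore had many mRNA reads and few footprints in every shoot, with an efficiency of -5.20 ± 0.314 in deficient shoots and -4.81 ± 0.116 in control shoots (SD, n = 3 each). The next members by control RNA count were Sobic.003G117000.1, of 306 coding bases, and Sobic.004G023200.1, of 1278 coding bases. The efficiency of Sobic.003G117000.1 was -2.71, -1.76 and -2.50 in deficient shoots and -2.39, -2.67 and -2.39 in control shoots, and that of Sobic.004G023200.1 was -3.14, -3.28 and -2.80 in deficient shoots and -2.98, -3.22 and -2.52 in control shoots.

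**Figure D1:**
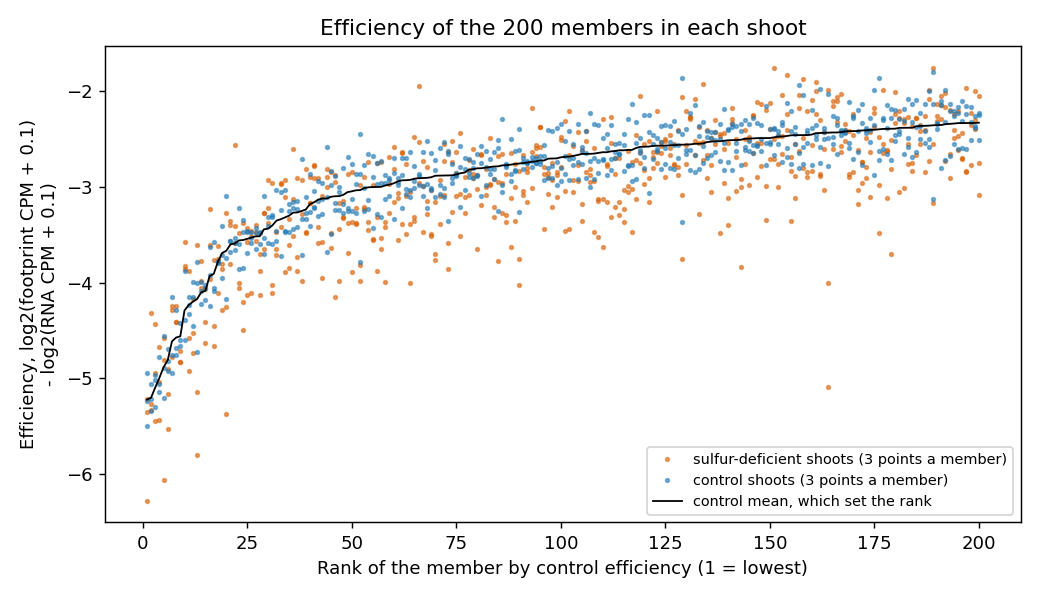
Efficiency (log2 of footprint CPM over RNA CPM) of each of the 200 members in 3 sulfur-deficient shoots (orange) and 3 control shoots (blue), ordered by the control mean (black line). The line climbs steeply over the first ranks and is nearly flat at the end, where it reaches -2.33.

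The members were sorted by control efficiency, so steps between neighbours in that order were small by construction and are given as a description. The 10 lowest ran from -5.22 to -4.29, whereas the median step between neighbours in the whole order was 0.00514. In 0 of 199 pairs of neighbours was the step larger than the pooled SD of both members over control shoots. The largest step, 0.271, lay between the 9th and the 10th member. The edge of the set is not a gap: the last members, Sobic.001G381600.1, Sobic.006G240700.3 and Sobic.003G097100.2, had control efficiencies of -2.34, -2.34 and -2.33, and the first transcripts left out, Sobic.001G247400.1, Sobic.001G543800.1 and Sobic.001G040500.1, all had -2.33. Within the median control SD of the members, 0.216, lay 66 members inside the edge and 91 transcripts outside it.

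Efficiency varied more over shoots for members than for other transcripts. The median SD over shoots was 0.298 in deficient and 0.216 in control shoots for members, against 0.218 and 0.152 for the other transcripts past the filters. Members hold few footprints, with a median of 69.3 per deficient library and 89.7 per control library, and counting alone would give a median SD of 0.185 in deficient and 0.161 in control shoots. The steadiest members over control shoots were Sobic.004G147500.1, at -2.75, -2.74 and -2.76, and Sobic.001G102300.1, at -3.77, -3.79 and -3.78. The least steady were Sobic.007G207100.1, at -3.37, -2.45 and -1.86, and Sobic.006G223300.1, at -3.13, -2.14 and -1.81. For both of these control shoot 1 was the lowest and control shoot 3 the highest.

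The footprint minimum limited which transcripts could enter the set. With the same limits on length and RNA, 3404 transcripts had a mean control footprint count under 50, and 968 of these had an efficiency at or below that of the highest member. The 200 are therefore the lowest only among mRNAs with a mean control count of at least 50 in both assays, not the lowest of the shoot. The minimum also requires many mRNA reads of any member, so that the lowest mean control RNA of a member was 27.4 CPM. Of the other transcripts past the filters, 6101 had at least that level, and they are used below beside the full set of 11308. Their median control RNA was 57.8 CPM, against 73.5 CPM in members, so they share the lower limit but are not matched in RNA.

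The deficient shoots were not used to choose the members, and footprints were tested against RNA within them. In edgeR's quasi-likelihood test with the shoot as a block, all 200 members had fewer footprints than mRNA at a Benjamini-Hochberg adjusted p under 0.05, as did 35.4% of 18996 transcripts tested and 26.4% of the 11508 past the filters of the rule. The largest adjusted p of a member was 0.00517. The log2 ratio of footprints to RNA in this fit ran from -5.20 to -1.64 over the members with a median of -2.51, against a median of -0.046 over all transcripts tested. Against a difference of 2-fold (edgeR's glmTreat), all 200 members were again lower. So were 15.9% of all transcripts tested, 6.87% of the 11508 and 7.93% of the 6101 others with at least 27.4 CPM of control RNA. All 200 upper bounds of the 95% intervals lay below -1. The test also covers transcripts with fewer footprints than the rule allows, and among all 18996 the highest member stood at percentile 13.9 and 14 members lay in the lowest 5%.

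The lowest members stayed far below the median of all transcripts tested in these shoots. They were not the lowest of all, since 0 members were among the 200 lowest of the 18996 in this fit. Sobic.003G278500.1 had a log2 ratio of -5.20 (SE 0.173, edgeR adjusted p = 7.5e-14) and Sobic.009G143700.1 one of -4.79 (SE 0.145, edgeR adjusted p = 1.26e-14). Sobic.004G211900.1 and Sobic.009G030100.1 stood at -4.52 and -4.47, with SEs of 0.205 and 0.17. The member with the largest adjusted p was Sobic.005G167500.3, named after its values were seen, at -2.89 (SE 0.532, edgeR adjusted p = 0.00517). It had 10, 7 and 54 footprints in deficient shoots 1 to 3.

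**Figure D2:**
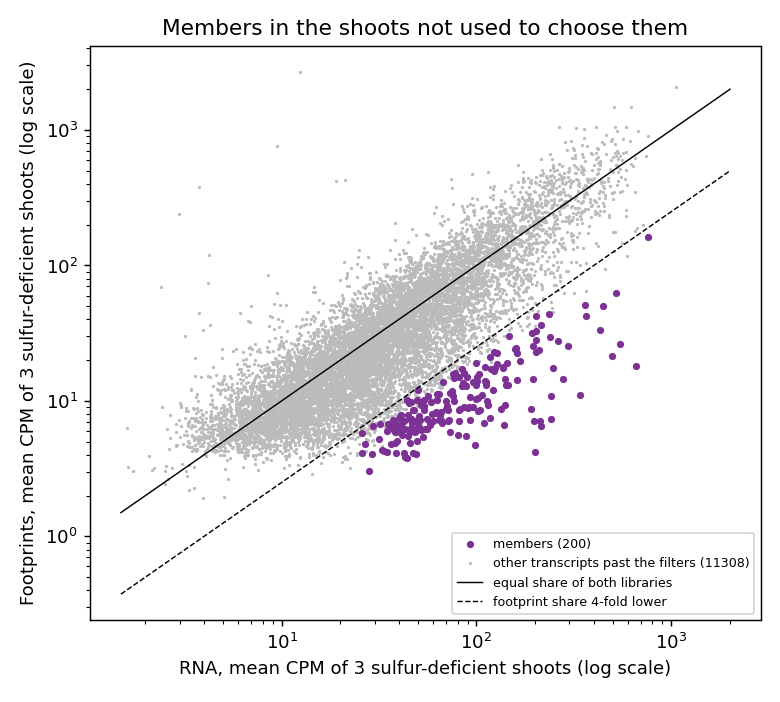
Mean footprint CPM against mean RNA CPM of the 3 sulfur-deficient shoots, both on log scales, for 200 members (purple) and 11308 other transcripts (grey). The solid line marks equal shares and the dashed line a footprint share 4-fold lower. Members lie along the lower edge of the cloud, around or below the dashed line.

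The rule was then repeated with the deficient columns. Of 10556 transcripts past its filters there, the 200 lowest held 142 members, or 71% of either list. Another 47 members failed the filters, 45 of them because their mean footprint count fell under 50 and 2 because their RNA entered the 150 most abundant. All 153 members that passed lay within the lowest 328. Of the 20 lowest in each treatment 15 were shared, and of the 10 lowest 7. With the filters left on control counts, 169 members were among the 200 lowest of the deficient mean and 195 among the 300 lowest.

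In every shoot the members as a group held a small share of footprints for their share of mRNA. They took 2.16, 2.21 and 2.26% of RNA counts in deficient shoots 1 to 3 and 2.10, 2.08 and 2.20% in control shoots. Of footprints they took 0.223, 0.259 and 0.295% in deficient shoots and 0.241, 0.256 and 0.306% in control shoots. The RNA share was thus 9.69, 8.52 and 7.66 times the footprint share in deficient shoots and 8.74, 8.14 and 7.19 times in control shoots.

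Median efficiency of the members was -3.04, -2.97 and -2.69 in deficient shoots and -2.82, -2.73 and -2.59 in control shoots. Relative to the median of the other transcripts it was -2.85, -2.71 and -2.59 in deficient shoots and -2.68, -2.61 and -2.47 in control shoots, so that the treatments overlapped. Shoot 3 of each treatment was the least low and shoot 1 the lowest. The spread of efficiency over all transcripts past the filters moved with it, with an SD of 0.96, 0.967 and 0.879 in deficient shoots and 0.937, 0.904 and 0.837 in control shoots. In units of that SD the distance of the member median from that of the other transcripts was -2.97, -2.80 and -2.94 in deficient shoots and -2.86, -2.89 and -2.95 in control shoots. The part of the spread in the shift between shoots was not tested.

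**Figure D3:**
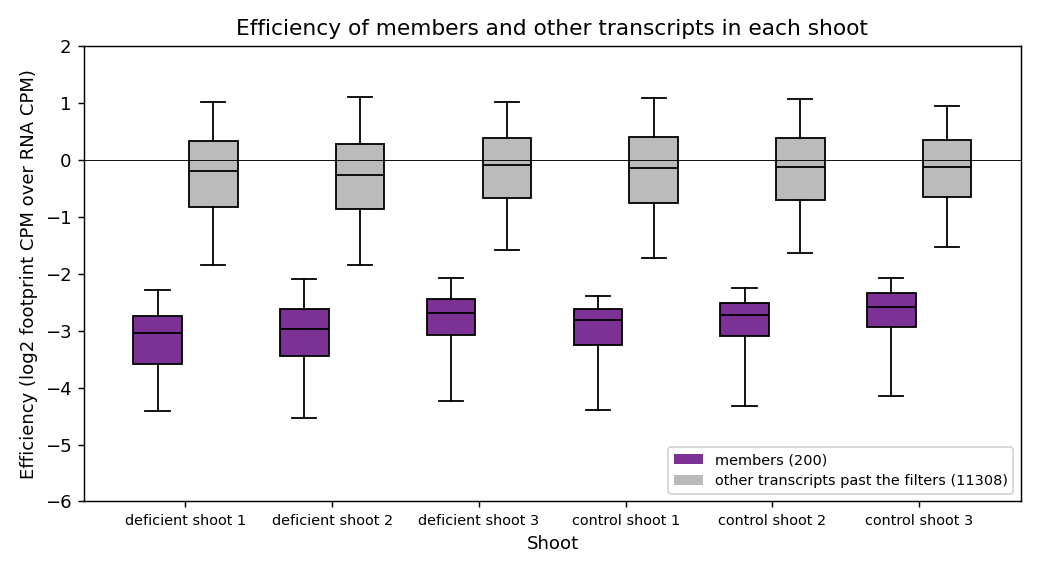
Efficiency in each shoot for the 200 members (purple) and the 11308 other transcripts past the filters (grey). Boxes span the quartiles, lines mark medians and whiskers the 5th and 95th percentiles. The member medians run from -3.04 in deficient shoot 1 to -2.59 in control shoot 3.

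The shift between shoots was mainly in footprints. The median deviation of a member's log2 footprint level (TMM-scaled CPM) from its mean over 6 shoots was -0.171, -0.0139 and 0.161 in deficient shoots 1 to 3 and -0.124, -0.0327 and 0.204 in control shoots 1 to 3. In deficient shoot 3, 152 of 200 members were above their own mean, and in control shoot 3, 169 were, against 60 in deficient shoot 1 and 57 in control shoot 1. Median deviations of the other transcripts stayed between -0.0215 and 0.014. In RNA the median deviations of members were smaller, -0.0171, 0.0276 and 0.0639 in deficient shoots and -0.0457, -0.0639 and 0.0165 in control shoots.

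Between treatments, few members differed in mRNA. The control values of this contrast also entered the choice of members, so the counts are a description. In edgeR's quasi-likelihood test 2 of 200 members rose and 0 fell, and 0.634% of all 20045 transcripts tested passed (0.564% higher). DESeq2 called the same number. At an unadjusted p under 0.05 there were 20 members higher and 4 lower, 12% of members and 12.2% of all transcripts. Log2 fold changes of the members ran from -0.47 to 0.89 with a median of 0.05, against -0.01 over all transcripts, and 140 of 200 were positive. Negative values made up 30% of members and 52.4% of all transcripts.

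Sobic.008G064700.1, with 1308 coding bases on chromosome 8, stood at 455, 404 and 438 CPM of RNA in deficient shoots, against 297, 279 and 307 CPM in control shoots. All deficient shoots were above all control shoots (log2 fold change 0.58, SE 0.0765, edgeR adjusted p = 0.0066). Its footprints were 25.9, 37.3 and 36.6 CPM in deficient shoots and 22.8, 25 and 27.8 CPM in control shoots, which overlapped (log2 fold change 0.50, SE 0.168, edgeR adjusted p = 0.645). Without deficient shoot 3 and without control shoot 1 its RNA missed the threshold (edgeR adjusted p = 0.056 and 0.0764).

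Sobic.004G042100.1, with 1557 coding bases on chromosome 4, stood at 65.7, 84 and 93.2 CPM of RNA in deficient shoots and at 44.7, 41.8 and 47.2 CPM in control shoots. The groups did not overlap (log2 fold change 0.89, SE 0.129, edgeR adjusted p = 0.0241). Its footprints, at 4.74, 6.36 and 10.4 CPM in deficient shoots and 5.11, 6.23 and 6.58 CPM in control shoots, overlapped (log2 fold change 0.36, SE 0.269, edgeR adjusted p = 0.789). Its efficiency was -3.76, -3.70 and -3.16 in deficient shoots and -3.11, -2.73 and -2.82 in control shoots. These groups did not overlap, but the interaction of assay and treatment gave a log2 change of -0.52 (SE 0.293, edgeR adjusted p = 1). With the shoot as a block it was -0.56 (SE 0.194, edgeR adjusted p = 0.994). Leaving out deficient shoot 2, or control shoot 1, 2 or 3, left its RNA short of the threshold (edgeR adjusted p from 0.052 to 0.154).

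The number of members called in RNA depended on the shoots. It was 4, 1 and 1 without deficient shoot 1, 2 or 3 and 0, 1 and 5 without control shoot 1, 2 or 3. Without both deficient shoot 1 and control shoot 3, a choice made after seeing the data, 44 members, or 22%, rose and 1 fell. In the same edgeR test 6.36% of 20033 transcripts were higher and 5.09% lower, against 0.564% higher with all shoots. Both shoots were left out because their RNA stood apart. This lowers the RNA spread within treatments in advance and raises the number of calls, so the counts are a description. The fold changes of these 44 were small, with a median log2 of 0.302 and a range of 0.202 to 1.09. These shares are not matched for RNA level. Median control RNA was 73.5 CPM in members and 30.0 CPM in the other transcripts past the filters. The share among transcripts with as much RNA was not computed for this fit. With all shoots, 26 members had higher and 14 lower RNA CPM in every deficient than in any control shoot, against 9.34% and 11.0% of the 11508 transcripts.

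In footprints no member passed. EdgeR called 0 of 200 and DESeq2 0, with 16 and 11 at an unadjusted p under 0.05, and edgeR called 0.224% of 16514 transcripts tested. At the unadjusted threshold edgeR had 8% of members and 6.90% of all transcripts. Log2 fold changes of the members ran from -0.76 to 0.74 with a median of -0.04, against 0.001 over all transcripts. The median half-width of a member's 95% interval was 0.488 in footprints and 0.169 in RNA. The footprint interval of 171 members excluded changes of more than 2-fold. Footprint CPM did not overlap for 6 members, higher in deficient shoots, and for 15, lower, against 2.98% and 9.93% of the 11508 transcripts.

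**Figure D4:**
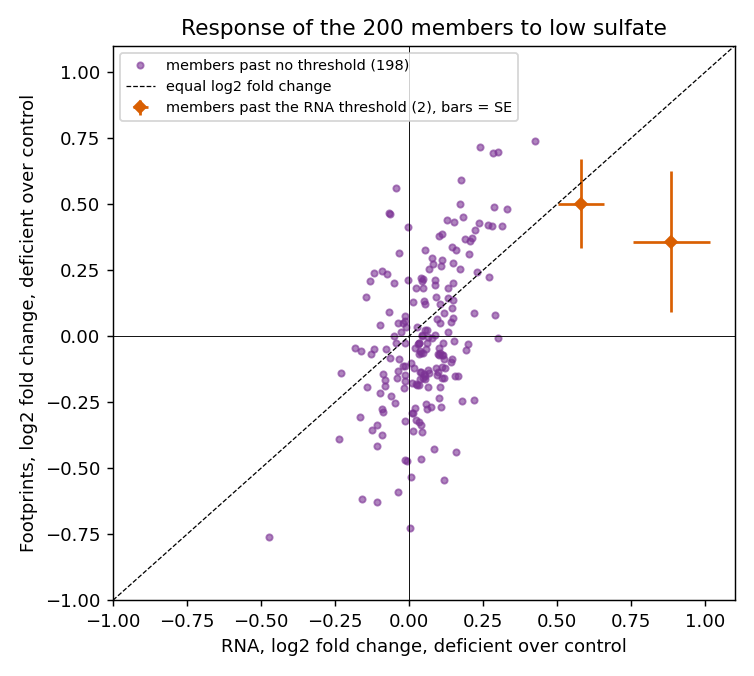
Log2 fold change of footprints against that of RNA, deficient over control, for the 200 members in the edgeR fits. Orange diamonds with SE bars are the 2 members past the RNA threshold, at 0.58 and 0.89 in RNA, and the dashed line marks equal change. The other members spread more widely in footprints than in RNA.

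Efficiency did not pass the test between treatments for any member. EdgeR's interaction called 0 of 200 members and 0.0% of 16420 transcripts, with 9 members at an unadjusted p under 0.05. DESeq2 called 0 with 13 such members, and edgeR with the shoot as a block called 0 with 13. The unadjusted shares in edgeR were 4.5% of members and 2.50% of all transcripts, and with the block 6.5% of members and 3.64% of all transcripts. The log2 change of a member had a median of -0.08 and a median 95% half-width of 0.457, against a median of 0.01 over all transcripts. It was negative for 123 of 200 members, or 61.5%, and for 47.4% of all transcripts. By mean efficiency on unscaled totals, 70.5% of members were lower in deficient shoots, against 65.1% of the other transcripts past the filters. Groups did not overlap for 7 members, higher in deficient shoots, and for 14, lower, beside 2.11% and 6.13% of the 11508 transcripts. Control values that chose the members enter these numbers too.

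By mean efficiency, 16 of 200 members differed between treatments by more than 0.5 and 1 by more than 1 on the log2 scale. The highest differences were those of Sobic.008G156400.1 and Sobic.002G213800.2. Sobic.008G156400.1 had -3.86, -3.57 and -3.82 in deficient shoots and -4.39, -4.60 and -3.88 in control shoots, which did not overlap (interaction 0.62, SE 0.226, edgeR adjusted p = 1). Sobic.002G213800.2 had -2.96, -1.95 and -2.54 in deficient shoots and -2.89, -2.98 and -2.87 in control shoots, which overlapped (interaction 0.54, SE 0.282, edgeR adjusted p = 1).

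The lowest differences were those of Sobic.005G167500.3 and Sobic.004G036100.1. Sobic.005G167500.3 had -4.0, -5.09 and -1.99 in deficient shoots and -2.78, -2.49 and -2.03 in control shoots, with deficient shoot 3 above every control shoot (interaction -0.72, SE 0.595, edgeR adjusted p = 1). Sobic.004G036100.1 had -3.75, -4.03 and -2.84 in deficient shoots and -3.26, -2.62 and -2.39 in control shoots, which overlapped (interaction -0.66, SE 0.304, edgeR adjusted p = 1).

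Coding length and position were then described, with no test. The rule limited coding length to 300 to 5999 bases for members and other transcripts alike. Within these limits it had a median of 1702.5 bases and quartiles of 1195.5 and 2308.5 in members. The median was 1266 in the other transcripts past the filters and 1338 in the 6101 with at least 27.4 CPM of control RNA. Coding sequences under 1000 bases made up 19% of members and 31.4% of these 6101 others, and those of 2000 to 2999 bases 20% against 15.9%. Those of 3000 bases or more were 12% of members and 8.51% of these others. Within the set, the median length was 1197 bases for the 15 members below -4, 1833 for the 42 from -4 to -3, 1578 for the 87 from -3 to -2.5 and 1776 for the 56 above -2.5. The class below -4 had the shortest median, and the other classes followed no order.

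**Figure D5:**
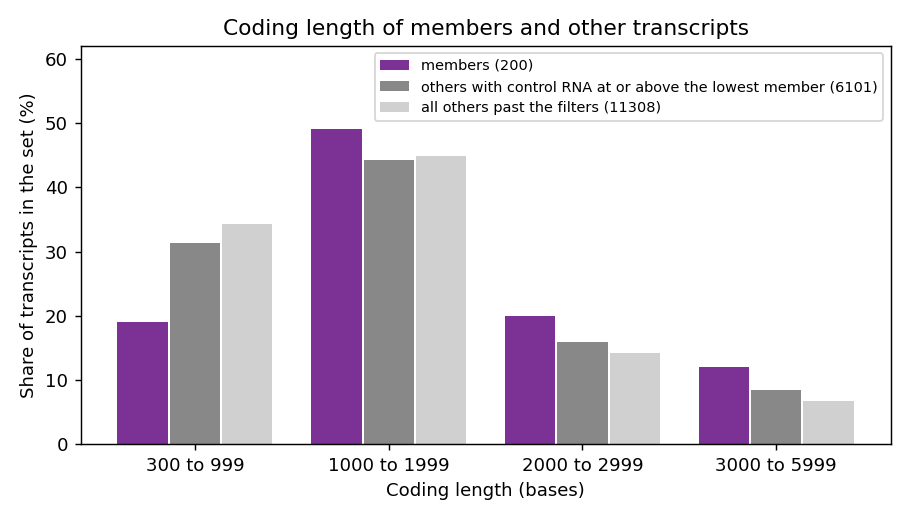
Share of transcripts in 4 classes of coding length (bases) for the 200 members, the 6101 others with control RNA at or above the lowest member, and all 11308 others. Members hold 19% in the shortest class, against 31.4% and 34.3% in the other sets.

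Footprints per 100 codons take the coding length into account but not the library totals, so treatments are not compared by them. They had a median of 13.7 in deficient and 17.6 in control libraries for members. Scaled to library totals, the median footprint level of members was 8.98 CPM in deficient and 9.47 CPM in control shoots. For the 6101 others with at least 27.4 CPM of control RNA, the median footprints per 100 codons were 90.1 in deficient and 117 in control libraries. Footprint counts entered the rule for control shoots, and the deficient values are those it did not use. Averaged over the libraries of a treatment, members ran from 2.43 to 1291 in deficient shoots and from 3.39 to 950.0 in control shoots. The highest in both treatments was Sobic.003G117000.1, whose 306 coding bases are close to the shortest allowed.

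Members were spread over all 10 chromosomes. There were 41 on chromosome 1, 24 on chromosome 4, 23 on chromosome 3 and 22 on chromosome 2, and between 7 and 21 on each of the others. Per 100 transcripts past the filters this was between 1.30 on chromosome 3 and 2.26 on chromosome 5. The transcripts listed directly before and after the members, 162 of which passed the filters, had a median control efficiency of -0.14, against -0.13 for all others past the filters. In 2 cases members stood next to each other. Both tables list 1 transcript per locus, and 29 members (14.5%) are numbered as another isoform than the first in their ID, against 13.2% of the other transcripts.

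The adjacent members, named after their values were seen, were Sobic.009G016600.1 with Sobic.009G016633.1 and Sobic.004G042100.1 with Sobic.004G042200.1. Sobic.009G016600.1 and Sobic.009G016633.1, of 1005 and 927 coding bases, had efficiencies of -4.36 ± 0.0969 and -3.60 ± 0.364 in deficient shoots and of -4.57 ± 0.255 and -3.93 ± 0.306 in control shoots (SD, n = 3 each). If these share sequence, how reads were divided between them is not given, and their values are uncertain. RNA of Sobic.004G042200.1 was 80.7, 82.4 and 83 CPM in deficient shoots and 80.3, 80.7 and 81.7 CPM in control shoots, nearly level where its neighbour Sobic.004G042100.1 rose. Its efficiency was -3.25 ± 0.266 in deficient and -2.94 ± 0.0362 in control shoots (SD, n = 3 each).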

How the data were processed

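Unnormalized whole-number counts were deposited in 2 tables, RNA-seq reads per transcript and footprints summed per coding sequence at the P site (the codon at which the ribosome holds the growing chain). Per the submitters' processing notes Bowtie2 and STAR were used, without roles or versions. The sources used here do not give the counting program, genome build, annotation or offsets. The 184 transcripts listed for RNA alone stayed out of ratios but in library sizes. Assays were told apart by table, since both share column names.

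Tests used edgeR 4.0.16 in R 4.3.3: TMM scaling, filterByExpr (minimum count 10, minimum total 15), robust quasi-likelihood fits, and Benjamini-Hochberg adjustment over all transcripts at 0.05. All 200 members passed the filter in each fit. RNA and footprints were fitted separately for treatment, efficiency as the interaction over 12 libraries, and footprints against RNA in deficient shoots with the shoot as a block. DESeq2 1.42.0 was an alternative. Efficiencies and CPM use unscaled totals. Libraries of a shoot share a powder per the labels, and their deviations from group means correlated at 0.0952 to 0.621. The main efficiency fit left this pairing out, and the shoot as a block was an alternative. Interaction SEs and p-values are from the fit without the block unless the block is named. Fits were tested on simulated data.

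Named transcripts are the 10 lowest, the 3 on each side of the edge, the 3 highest in control RNA, the 2 steadiest and 2 least steady, those past a threshold between treatments, and the 2 largest differences in efficiency each way (5 were planned, and fewer are given because IDs have no names). Members, lists and tests were chosen with earlier results of these data known.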

Additional observations from a re-analysis of the deposited data

How the results depend on the processing

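All 200 members had fewer footprints than mRNA in deficient shoots under all 9 alternatives, DESeq2, other scalings, no filter, no replicate block and each shoot left out included. Footprint and efficiency calls between treatments stayed at 0 under all 11 alternatives of each, the replicate block included. Without deficient shoot 1 and control shoot 3, members at an unadjusted p under 0.05 in edgeR numbered 36 in footprints and 22 in efficiency. The shares over all transcripts were not computed for these fits. RNA calls of members, 2 with all shoots, were 2 with DESeq2, RLE factors, no filter and the replicate block, 0 to 5 with 1 shoot left out and 45 without deficient shoot 1 and control shoot 3, chosen after seeing the data; the cause was not tested. Over all transcripts past the filters, replicate numbers did not pair shoots across treatments (correlations -0.204, 0.255 and -0.124 in RNA and 0.00749, -0.0036 and 0.165 in footprints). Among members alone, median footprint deviations rose from shoot 1 to shoot 3 in both treatments, and pairing within the members was not tested. The list itself rests on the count minimum by construction: a minimum of 20 kept 92 members and one of 200 kept 30, and in deficient shoots 142 members among the 200 lowest became 122 and 16. A pseudocount of 1 kept 192, TMM scaling 200, and leaving out 1 control shoot 179 to 186. Leaving out 1 deficient shoot gave 124 to 159 members among the 200 lowest. The sequence features planned were not run, since no sequence table was given. Footprint depth was as low as 7 counts of a member in a library, and the SD over shoots exceeded that from counting for 163 members in deficient and 131 in control shoots.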
